A study of Mus musculus with 4 samples.

Results

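The comparison described here is the effect of photothrombotic stroke in normotensive mice, NT + Stroke against NT + Sham, across all genes of the brain transcriptome. Its members are the 12 libraries, 6 in each group, that the deposited table of this comparison holds, out of 24 libraries in the series, and the 31529 genes that the table lists, out of 33981 genes in any table of the series. All mice were male C57BL/6J animals aged 3 to 5 months. The mice of both NT groups were infused with saline, the vehicle of the angiotensin II that was given at 0.28 mg/kg/day to the hypertensive (HT) groups. Surgery was on day 7 of infusion and tissue was taken on day 28, so the stroke was 21 days old. Photothrombosis, in which light shone through the skull activates a photosensitive dye in the blood and closes the vessels it reaches, was aimed at the prefrontal cortex. The labels and the methods place the light at different distances from bregma. Sham mice went through the same surgery without the light. The labels name 1 sample per group, call the tissue brain and have titles that name the prefrontal region, and by the methods the RNA came from a brain slice cut across that region. Nothing in the labels says that the 6 libraries of a group came from 6 separate mice, so every P value below measures the spread between these libraries.

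A cortical infarct that has reached the subacute phase holds phagocytes that clear dead cells and myelin, with a border of reactive astrocytes around it and a fibrotic scar of collagen-making fibroblasts within it. Microglia and infiltrating monocytes that have taken up lipid-rich debris pass through a state marked by the receptor TREM2, lysosomal enzymes and cholesterol export. Neurons around the lesion lose synapses and can change their channels and transmitter receptors, while interferon signalling and antigen presentation may stay active in glia.

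The count of assigned reads per library was 18106572 to 21377886 (median 18953928) in NT + Sham and 16035900 to 24865857 (median 18514710) in NT + Stroke. No 2 libraries of a group matched within sampling noise. Of the listed genes, 16835 had enough counts to be tested. With edgeR's quasi-likelihood test and a Benjamini-Hochberg adjusted P under 0.05, 2426 genes (14.4% of those tested) were higher and 1939 (11.5%) were lower in NT + Stroke. All 6 NT + Stroke libraries were above all 6 NT + Sham libraries for 1338 genes (7.95% of those tested) and below all of them for 907 genes (5.39%).

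The sizes of the changes differed by direction. The median change of the genes called up was 1.58-fold, and 719 of them (29.6%) rose at least 2-fold. The median change of the genes called down was -18.1%, and 13 of them (0.67%) fell at least 2-fold. Calls also differed by level: when the tested genes were ranked by level and cut into 5 equal classes, 6.83% of the top class were called up and 28.6% down, whereas 23.6% of the class next to the lowest were called up and 4.34% down. The part that the better counting precision of abundant genes plays in this was not tested. Protein-coding genes made up most calls, with 16.1% called up and 12.6% called down. Of the lincRNA genes, 4.49% were called up and 7.68% called down. The split of the calls depended on the scaling of the libraries: with library size alone and no further scaling, 2987 genes were called up and 1021 down, which is 74.5% up against 55.6% in the values above, and the median of all genes moved from -0.01 to 0.06 on the log2 scale.

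**Figure D1:**
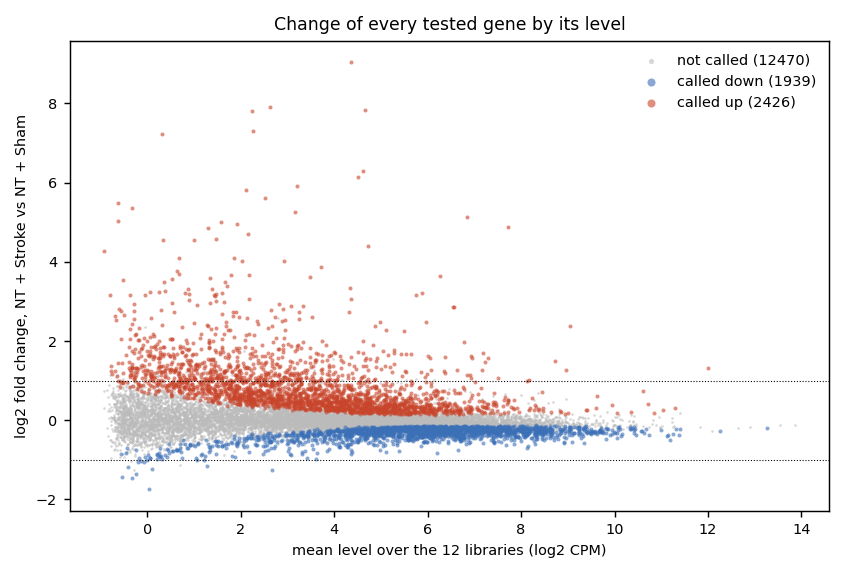
The y axis shows the log2 fold change (NT + Stroke vs NT + Sham) and the x axis the mean level over the 12 libraries in log2 CPM (reads scaled to a common library size) for each of the 16835 tested genes, with genes called up in red, called down in blue and not called in grey, and dotted lines at a 2-fold change. The red points reach a log2 fold change of 9.04 and the blue points reach -1.74.

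Markers of 2 neighbouring brain regions differed between libraries. A score called olfactory bulb here, the mean log2(CPM + 1) of markers of olfactory bulb and neuroblasts, was 3.633 to 4.295 in NT + Sham and 4.082 to 5.322 in NT + Stroke. NT + Stroke libraries 1, 4 and 5 were above 5. Neuroblast genes such as *Dcx* are members, so the score need not follow the dissection alone. The corresponding striatal score was 4.326 to 6.1 in NT + Sham and 4.547 to 6.613 in NT + Stroke. Of the 19 tested markers of the olfactory bulb and neuroblasts, 12 were called up, with a median log2 fold change of 0.99, and their summed level was 490 to 727 CPM in NT + Sham and 620 to 1405 CPM in NT + Stroke. None of them was called with the region scores as covariates. The olfactory bulb score is the mean of these same genes, so the fit takes out their shared change. That count therefore cannot test them. Without NT + Sham library 1, NT + Sham library 3 or NT + Stroke library 5, 6 were called up, and 7 without NT + Stroke library 1 or 4. The 17 striatal markers had a median log2 fold change of 0.68, with 1 called up, 5 without NT + Stroke library 4 and 7 without NT + Stroke libraries 1, 4 and 5. When both scores were added to the fit as covariates, 699 of the 16835 tested genes were called up and 74 down. List counts with the region scores below are to be read against these. With so few genes called down, 0 calls down is what most lists would give. Of the genes called without the scores, 686 of the 2426 higher and 65 of the 1939 lower remained called, while 2382 and 1897 kept their sign. The median log2 fold change went from 0.66 to 0.56 for the genes called up and from -0.29 to -0.19 for the genes called down. Without NT + Stroke libraries 1, 4 and 5, 2063 genes were called up and 1110 down. What part the share of olfactory bulb and striatum in the dissection plays in any single gene was not tested beyond these fits. A score that differs between the groups can also take up part of a stroke effect, and these fits cannot tell the 2 apart. The count under the covariates is given beside each list below. Where a list had members with too few counts to be tested, a low member could pass through the group where it was higher, so its count describes the tested members only.

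**Figure D2:**
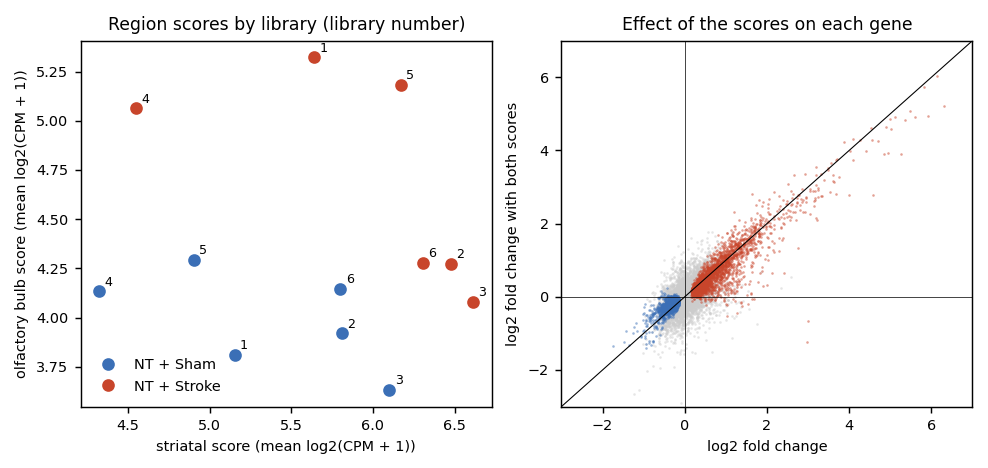
The left panel plots the olfactory bulb score against the striatal score, each a mean log2(CPM + 1), for the 12 libraries, labelled by library number, with NT + Sham in blue and NT + Stroke in red. The right panel plots each tested gene's log2 fold change with both scores as covariates against that without them, with genes called up in red, called down in blue and not called in grey, and the diagonal as a line. NT + Stroke libraries 1, 4 and 5 stand above a score of 5.

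Among genes above a mean log2 CPM of 1 whose groups did not overlap, the 10 called up with the smallest P values were *H2-K1*, *Vim*, *Ifitm3*, *Cd48*, *Lgals3bp*, *Cyp1b1*, *Sparc*, *A2m*, *Mxra8* and *Tlr2*. *Vim* (vimentin, an intermediate filament of reactive astrocytes, chromosome 2 in GRCm38) was at 42.4 to 46.9 CPM (median 43.9) in NT + Sham and at 132 to 214 CPM (median 180) in NT + Stroke. Every NT + Stroke library was far above every NT + Sham library, and the log2 fold change was 1.97 with an SE of 0.0946 (adjusted *P* = 9.52e-10). *Cd48*, an adhesion receptor of leukocytes, rose from 0.29 to 0.711 CPM (median 0.512) to between 3.8 and 7.58 CPM (median 5.84), an 11.2-fold change (adjusted *P* = 4.7e-08). *Cyp1b1*, a monooxygenase of perivascular cells, went from a median of 3.96 to 13.9 CPM, and *Mxra8*, a matrix-associated adhesion protein, from 7.32 to 21.4 CPM. Both ranges were free of overlap (log2 fold changes of 1.91 and 1.63, each with adjusted *P* = 7.83e-08).

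Of 24 markers of disease-associated microglia, the lipid- and debris-handling state, 22 rose and 0 fell, with a median log2 fold change of 1.6 against -0.01 over all tested genes. With the region scores, 21 of the 24 were called up. *Trem2*, a lipid-sensing receptor that controls entry into this state, was at 18.6 to 28.4 CPM (median 21.4) in NT + Sham and at 46.4 to 101 CPM (median 73.5) in NT + Stroke. The groups did not overlap (3.19-fold, SE of the log2 fold change 0.196, adjusted *P* = 6.55e-05). *Igf1*, a growth factor of phagocytic microglia, rose 2.88-fold (8.95 against 24.5 CPM as medians, no overlap, adjusted *P* = 9.93e-08). At the upper end of the list stood *Gpnmb*, a lysosomal glycoprotein of lipid-laden phagocytes, with 6.39 CPM against 223 CPM as group means, and *Lyz2*, lysozyme of myeloid cells, with 13.6 against 404 CPM, both picked out after their values were seen.

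Of 16 homeostatic microglial markers, 12 were called up and 0 down, with a median log2 fold change of 0.52. The summed level of the list was 915 to 975 CPM (median 936) in NT + Sham and 1192 to 1452 CPM (median 1290) in NT + Stroke, without overlap. *Olfml3*, a secreted microglial protein, was at a median of 23.6 CPM in NT + Sham and 42.0 CPM in NT + Stroke (1.85-fold, adjusted *P* = 2.46e-07). *P2ry12*, the ADP receptor with which resting microglia sense injury, stood at 21.4 to 28.3 CPM (median 24.4) in NT + Sham and 23.1 to 29.8 CPM (median 24.3) in NT + Stroke, and the groups overlapped (log2 fold change 0.05 with an SE of 0.0813, adjusted *P* = 0.73). In bulk tissue, fewer cells of a type cannot be told apart from less RNA per cell, and the same holds for more. With the region scores as covariates, 8 of the 16 markers were called up.

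Of 16 markers of border-associated and infiltrating macrophages, 12 had enough counts to be tested, which a low gene can reach through the stroke group alone, so no summary over the list is given. *Ms4a7*, a membrane protein of macrophages that did not arise as microglia, was at 0.094 to 0.82 CPM (median 0.39) in NT + Sham and at 4.0 to 12.7 CPM (median 7.36) in NT + Stroke (16.1-fold, adjusted *P* = 1.47e-06). *Mrc1*, the mannose receptor of perivascular macrophages, rose from a median of 3.65 to 7.14 CPM (adjusted *P* = 4.91e-05). *Ccr2*, the chemokine receptor with which monocytes leave the blood stream, rose from 0.496 to 1.78 CPM (adjusted *P* = 1.97e-05). None of the 3 overlapped between groups.

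Lymphocyte and granulocyte genes were mostly below the count filter. Only 7 of 20 T cell genes, 7 of 15 B cell genes and 4 of 11 neutrophil genes had enough counts, and since such a gene can pass through the group where it is high, no summary over these lists is given. *Ccl5*, a chemokine of activated T and natural killer cells, was at 0.0 to 0.378 CPM (median 0.213) in NT + Sham and at 0.93 to 3.51 CPM (median 3.07) in NT + Stroke, without overlap (adjusted *P* = 1.02e-05). *Igkc*, the immunoglobulin kappa constant region, was at 0.107 to 2.86 CPM (median 0.63) in NT + Sham and at 3.88 to 46.9 CPM (median 8.36) in NT + Stroke (adjusted *P* = 0.00611), with the highest value in NT + Stroke library 1. Neither *Igkc* nor *S100a8*, an alarmin of neutrophils, was called with the region scores as covariates (adjusted *P* = 0.506 and 0.759). *Csf3r*, the receptor for granulocyte colony-stimulating factor, which myeloid cells other than neutrophils also carry, rose from a median of 7.44 to 20.3 CPM with or without them (adjusted *P* = 1.32e-07 without, 1.62e-05 with). *Trbc2*, annotated as a T cell receptor constant region, went the other way: it stood at 24.5 to 28.2 CPM (median 26.5) in NT + Sham and at 11.6 to 18.5 CPM (median 14.7) in NT + Stroke (-44.4%, adjusted *P* = 3.84e-06), while *Cd3e*, a chain of the same receptor complex, was at 0.0581 to 0.54 CPM in NT + Sham and 0.553 to 0.93 CPM in NT + Stroke. Red cell genes, a check on blood left in the tissue, gave 0 calls among 5 tested, and *Hbb-bs*, the adult beta-globin, overlapped between the groups (29.7 to 44.0 CPM against 20.5 to 80.9 CPM).

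Of 29 reactive astrocyte genes, 26 rose and 0 fell, with a median log2 fold change of 2.11, and all 26 were free of overlap between the groups. Some members also stand in other lists here, such as *C3* (complement), *Cd14* (Toll-like receptors) and *Gbp2* (interferon-stimulated genes). The change of the list can therefore not be assigned to astrocytes alone. With the region scores 24 were called up. *Gfap*, the intermediate filament that marks astrogliosis, was at 147 to 184 CPM (median 178) in NT + Sham and at 602 to 1066 CPM (median 957) in NT + Stroke (5.25-fold, SE of the log2 fold change 0.138, adjusted *P* = 8.86e-08). *A2m*, the protease inhibitor alpha-2-macroglobulin, rose 14.6-fold, from a median of 1.73 to 24.6 CPM (adjusted *P* = 7.83e-08). Of the markers of homeostatic astrocytes, 12 of 20 were called up and 0 down, with a median log2 fold change of 0.23, and 3 of 20 were called up with the region scores. *Mlc1*, a junction protein of astrocyte endfeet, rose 41.9% (166 to 185 CPM against 228 to 261 CPM, adjusted *P* = 2.45e-06), and *Gjb2*, the gap junction protein connexin 26 that the meninges also express, rose 2.55-fold. *Aldh1l1*, a folate enzyme used as a general astrocyte marker, overlapped between the groups (53.4 against 60.6 CPM as medians, adjusted *P* = 0.0495) and lost its call when any of 7 libraries was left out.

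The oligodendrocyte lineage showed small differences. Of 22 myelin genes, 9 were called up and 0 down, with a median log2 fold change of 0.23, and 1 was called with the region scores. *Aspa*, which breaks down N-acetylaspartate in oligodendrocytes, rose 1.4-fold without overlap (adjusted *P* = 0.000541). Among 14 genes of the precursors, 8 were called up and 0 down (1 up with the region scores), but *Pdgfra*, the receptor that defines precursor cells, did not differ beyond its spread (19.7 to 27.6 CPM against 22.2 to 25.5 CPM, adjusted *P* = 0.838). *Bmp4*, a growth factor of oligodendrocytes that have just left the cycle, rose from a median of 3.21 to 5.56 CPM without overlap (adjusted *P* = 0.000115).

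Of 22 endothelial and blood-brain barrier genes, 5 were called up (22.7%, against 14.4% of all tested genes) and 0 down. The median log2 fold change was 0.12, with 1 call with the region scores and 3 calls without NT + Sham library 1. *Cdh5*, the cadherin of endothelial junctions, rose 52.1% (10.7 to 13.2 CPM against 15.3 to 22.9 CPM, adjusted *P* = 0.000225), and *Vwf*, a clotting factor stored in endothelium, rose 39.5%. The tight junction gene *Cldn5* was called (25.8% higher, adjusted *P* = 0.0194) although its groups overlapped, and its call was lost without NT + Sham library 1. Of 15 tested pericyte and smooth muscle genes, 6 were called up (3 with the region scores), among them *Pdgfrb*, the receptor that recruits pericytes (20.3 against 30.4 CPM as medians, no overlap, adjusted *P* = 6.56e-06). The aminopeptidase *Anpep*, which myeloid cells also express, rose 3.53-fold.

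Of 17 tested fibroblast genes, 16 rose and 0 fell, with a median log2 fold change of 1.17, and 6 were called with the region scores. *Col1a1*, a chain of type I collagen, ranged from 8.36 to 13.4 CPM (median 11.5) in NT + Sham and from 47.7 to 253 CPM (median 141) in NT + Stroke, so the lowest stroke library was still above the highest sham library while the stroke libraries differed widely among themselves (12.4-fold, SE of the log2 fold change 0.37, adjusted *P* = 4.61e-05). *Dcn*, the collagen-binding proteoglycan decorin, rose 5.53-fold and *Islr*, a secreted stromal protein, 2.26-fold. The wider list of collagens, matrix proteins and matrix enzymes gave 39 of 42 called up and 0 down, with 29 of 42 free of overlap, a median log2 fold change of 1.01 and 21 calls with the region scores. *Sparc*, which binds collagen, rose from a median of 188 to 368 CPM (2.02-fold, SE of the log2 fold change 0.0728, adjusted *P* = 7.83e-08), and *Col18a1*, a basement membrane collagen, rose 3.23-fold. In the perineuronal net list, 3 of 16 tested genes (18.8%, against 14.4% of all tested genes) were called up and 2 (12.5%, against 11.5%) down. The list was thus near the shares of all genes, with a median log2 fold change of 0.07. Without NT + Sham library 4, 5 were called up, and with the region scores 1 up and 0 down. The hyaluronan receptor *Cd44*, carried by reactive glia, rose 5.0-fold, and *Hapln4*, a link protein of the net, was lower (-16.7%) with overlapping groups and was at a log2 fold change of 0.01 with the region scores.

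Motile cilia genes of the ependyma, the lining of the ventricles, gave 7 of 15 tested called up and 0 down. *Foxj1*, the master regulator of motile cilia, was at 4.93 to 11.4 CPM (median 7.35) in NT + Sham and at 13.1 to 25.8 CPM (median 17.8) in NT + Stroke, without overlap (adjusted *P* = 0.000248). With the region scores *Foxj1* was still called (adjusted *P* = 0.0202), as were 3 of the 15 genes in all. Choroid plexus genes were near the floor, with 5 of 11 tested, and *Ttr*, their main product, was at 0.108 to 8.83 CPM in NT + Sham and 0.387 to 1.53 CPM in NT + Stroke.

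**Figure D3:**
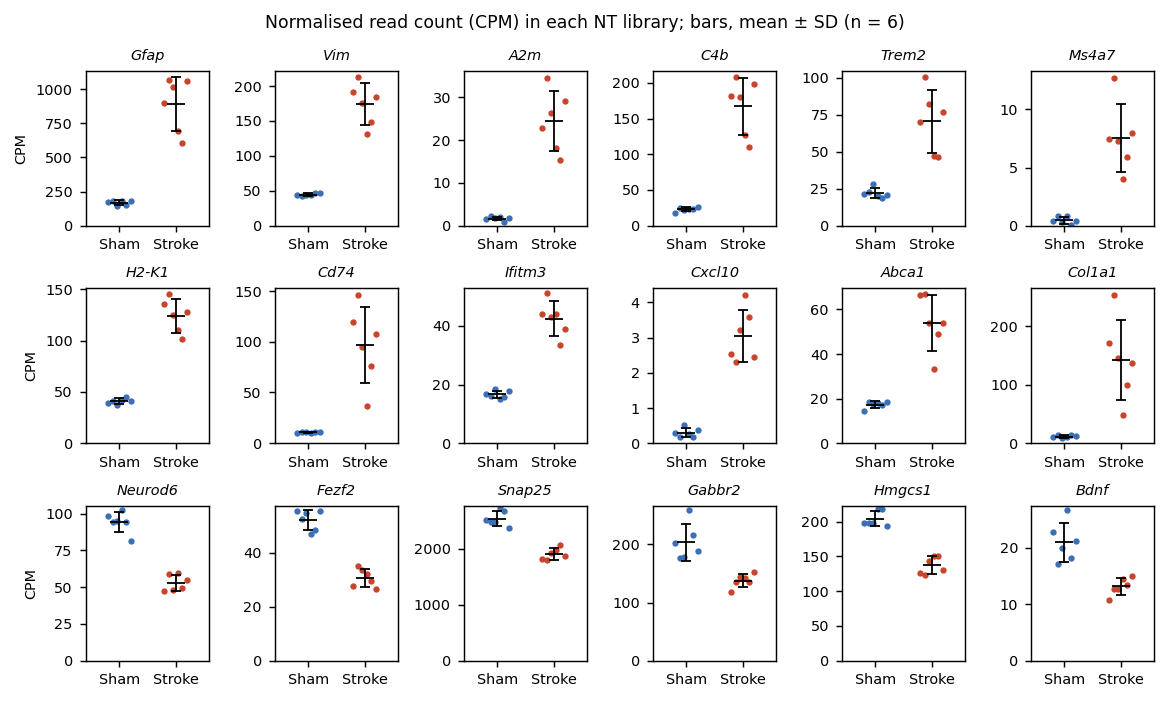
Each panel shows the CPM of one gene in the 6 NT + Sham (blue) and 6 NT + Stroke (red) libraries, with the mean and SD in black on linear axes from 0. The 18 genes were picked from the named genes, and other named genes, such as P2ry12 and Fos, overlap between the groups. In all 18 panels the groups do not overlap: the first 12 genes, from Gfap to Col1a1, are higher and the last 6, from Neurod6 to Bdnf, are lower in NT + Stroke.

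Of 21 complement genes tested out of 26, 17 were called up and 0 down (median log2 fold change 1.48, 13 with the region scores). These values describe the tested members only, since a low gene could pass the count filter through the stroke group alone. *C1qa*, a chain of the recognition molecule C1q, was at 65.3 to 89.4 CPM (median 80.1) in NT + Sham and at 158 to 356 CPM (median 228) in NT + Stroke (adjusted *P* = 6.24e-05). *C4b*, the next component of the classical pathway, rose 7.23-fold, from a median of 23.6 to 181 CPM (adjusted *P* = 1.36e-07).

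Receptors that signal through TYROBP or Fc chains gave 19 of 20 called up (median log2 fold change 1.42, 14 with the region scores). *Tyrobp*, the adaptor of TREM2, rose 3.25-fold (16.3 to 19.4 CPM against 37.4 to 88.3 CPM, adjusted *P* = 3.86e-05). *Fcgr4*, an activating IgG receptor, was at 0.0537 to 0.219 CPM in NT + Sham and 2.02 to 3.88 CPM in NT + Stroke, and *Fcgr2b*, the inhibitory IgG receptor, at 3.01 to 4.76 CPM and 11.9 to 23.2 CPM. The activating and the inhibitory receptor both rose, with no overlap for either.

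Of 22 Toll-like receptor and inflammasome genes tested out of 25, 18 were called up (median log2 fold change 0.99, 6 with the region scores), and *Tlr2*, the receptor for bacterial lipoproteins and tissue damage signals, rose 5.63-fold, from 0.82 to 1.06 CPM to between 3.92 and 6.69 CPM. Of 25 genes tested out of 32 of cytokines, their receptors and signalling, 21 were called up and 1 down (median 0.70, 14 with the region scores). In both lists, a low gene could pass the count filter through the stroke group alone. The counts and medians therefore describe the tested members only. *Tnf*, the inflammatory cytokine, had too few counts to be tested (at most 0.101 CPM in NT + Sham and 0.814 CPM in NT + Stroke), while its receptor *Tnfrsf1a* rose from a median of 15.8 to 32.7 CPM (adjusted *P* = 3.65e-06). *Csf1* and *Il34* are the 2 ligands of the receptor that keeps microglia alive. *Csf1* rose 62.3% without overlap (19.1 against 33.1 CPM as medians, adjusted *P* = 3.93e-06), and *Il34*, made by neurons, was lower (-14.1%) with overlapping groups (adjusted *P* = 0.0434), a call that was lost when any of 9 libraries was left out.

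Of 27 chemokines and chemokine receptors, 21 had enough counts to be tested, which a low gene can reach through the stroke group alone, so no count of calls is given. The summed level of the list did not separate the groups (1300 to 1584 CPM against 1250 to 1583 CPM). Its largest share came from *Cx3cl1*, the neuronal ligand of microglia, which did not pass the test (1062 against 935 CPM as means). *Cxcl10*, which draws activated T cells, rose 9.99-fold from a median of 0.287 to 2.87 CPM (adjusted *P* = 1.83e-07), and *Cxcl16*, a scavenger receptor and chemokine, rose 5.35-fold. *Ccl2*, which draws monocytes, was at 0.0 to 0.29 CPM in NT + Sham and 0.83 to 1.19 CPM in NT + Stroke (adjusted *P* = 6.49e-05).

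Interferon-stimulated genes gave 30 of 32 called up and 0 down (median log2 fold change 1.17), with 24 of 32 free of overlap and 20 called with the region scores. *Ifitm3*, which blocks virus entry, was at 15.1 to 18.3 CPM (median 16.4) against 33.3 to 51.0 CPM (median 43.6), a log2 fold change of 1.35 with an SE of 0.0892 (adjusted *P* = 4.7e-08). *Ifit3*, an interferon-induced antiviral protein, rose (2.02-fold, adjusted *P* = 2.74e-06), and *Lgals3bp*, a secreted glycoprotein, rose 3.2-fold. Class I presentation gave 15 of 19 called up (13 with the region scores), with *H2-K1*, a classical class I heavy chain, at 37.6 to 45.4 CPM against 101 to 146 CPM (log2 fold change 1.59 with an SE of 0.0804, adjusted *P* = 9.52e-10) and *B2m*, its light chain, at 110 to 127 CPM against 199 to 297 CPM. The heavy chains are near-identical paralogs that can share reads, so single H2 genes are uncertain. Class II presentation gave 11 of 14 called up (6 with the region scores). *Cd74*, the invariant chain, was at 10.1 to 11.4 CPM (median 10.8) in NT + Sham and 36.4 to 146 CPM (median 101) in NT + Stroke. *H2-Ab1*, a class II beta chain, rose 8.25-fold.

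All promoters were searched for 9 short motifs of known regulators, in the 250 bases before the start of each gene in RefSeq (GRCm38.p6), on both strands. A promoter was found for 12075 of the 16835 tested genes (71.7%), which is under 80%, so the comparison between gene groups is void and no share by list is given. Over all 27025 genes of the promoter table, the interferon-stimulated response element (GAAANNGAAA) was in 3.46%, the core site of the myeloid factor PU.1 (GAGGAAGT) in 2.79% and the E-box of lysosomal genes (TCACGTGA) in 0.907%. The other motifs were AP-1 (TGANTCA, 7.82%), the sterol element (TCACCCCAC, 0.555%), the cyclic AMP element (TGACGTCA, 1.77%), NF-kB (GGGANTTTCC, 0.414%), RFX (GTTGCCATG, 0.733%) and MEF2 (CTANNNNTAG, 3.7%). The stretches below come from the 3 called genes with the smallest P values that hold the motif of their list, for each of 3 lists, with the matches in capitals on the gene's own strand, and show what such matches look like in genes that rose (*Atp6v1a*, the exception, fell). A match describes letters, not a bound site.
Bst2, interferon-stimulated, chr8:71537547-71537642, minus strand: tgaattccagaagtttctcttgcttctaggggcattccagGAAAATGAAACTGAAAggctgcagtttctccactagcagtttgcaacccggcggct
Gbp2, interferon-stimulated, chr3:142620564-142620653, plus strand: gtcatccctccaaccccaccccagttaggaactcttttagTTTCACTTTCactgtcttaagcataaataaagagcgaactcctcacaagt
Ifit3, interferon-stimulated, chr19:34583333-34583456, plus strand: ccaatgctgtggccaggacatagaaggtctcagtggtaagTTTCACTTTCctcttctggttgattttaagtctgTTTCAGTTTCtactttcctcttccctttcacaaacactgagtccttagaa
Fcgr4, Fc receptor, chr1:171018862-171018925, plus strand: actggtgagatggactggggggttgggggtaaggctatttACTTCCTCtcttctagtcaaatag
Vav1, signalling below Fc receptors, chr17:57279049-57279099, plus strand: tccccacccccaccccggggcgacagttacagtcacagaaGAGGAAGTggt
Pik3cg, signalling below Fc receptors, chr12:32208614-32208701, minus strand: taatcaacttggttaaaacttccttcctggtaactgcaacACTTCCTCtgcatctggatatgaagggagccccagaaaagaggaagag
Ctsa, lysosomal, chr2:164833720-164833772, plus strand: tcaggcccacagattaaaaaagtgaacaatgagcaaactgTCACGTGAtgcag
Ctsd, lysosomal, chr7:142387879-142387966, minus strand: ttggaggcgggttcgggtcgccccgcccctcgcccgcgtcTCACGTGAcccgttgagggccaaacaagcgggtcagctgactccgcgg
Atp6v1a, lysosomal, chr16:44139344-44139431, minus strand: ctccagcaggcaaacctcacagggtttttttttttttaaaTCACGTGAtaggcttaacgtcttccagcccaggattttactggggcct

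Lysosomal genes gave 29 of 41 called up and 2 down (median log2 fold change 0.56, 20 up and 0 down with the region scores), and their summed level was 6236 to 6619 CPM in NT + Sham and 7362 to 9754 CPM in NT + Stroke, without overlap. *Ctsc*, a protease that activates serine proteases of immune cells, rose 2.78-fold (adjusted *P* = 4.45e-07), *Npc2*, which hands cholesterol out of the lysosome, 80.3%, and *Lamp1*, the general lysosomal membrane protein, 30.2% (263 to 286 CPM against 310 to 396 CPM, adjusted *P* = 0.000223). The 2 members that fell are subunits of the proton pump, *Atp6v1b2* and *Atp6v1a*, which synaptic vesicles also use. *Atp6v1b2* was at 597 to 651 CPM (median 614) against 461 to 509 CPM (median 504), or -19.8% (adjusted *P* = 0.000101). These pump subunits and *Ctsc* therefore moved in opposite directions.

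Of 27 tested genes of lipid uptake, storage and efflux, 18 were called up and 3 down (median log2 fold change 0.56, 9 up and 0 down with the region scores). *Abca1*, which exports cholesterol to apolipoproteins, was at 14.3 to 18.3 CPM (median 17.9) against 33.4 to 66.9 CPM (median 54.0), a 3.11-fold rise (adjusted *P* = 1.71e-06), and *Plin2*, which coats lipid droplets, rose 3.71-fold. *Fabp3*, a fatty acid carrier of neurons and muscle, was lower (-25.8%) with overlapping groups. The genes of cholesterol synthesis went the other way, with 0 of 22 called up and 13 called down (median log2 fold change -0.31, 3 down with the region scores). *Hmgcs1*, which makes the precursor of mevalonate, was at 194 to 218 CPM (median 198) in NT + Sham and 124 to 151 CPM (median 137) in NT + Stroke, or -32.5% (adjusted *P* = 4.46e-06, and 0.00378 with the region scores). *Msmo1*, a later step of the pathway, fell by 27.5% without overlap (adjusted *P* = 2.4e-05). The summed level of synthesis genes was 1436 to 1556 CPM against 1114 to 1284 CPM.

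Genes of iron and heme handling gave 8 of 17 tested called up and 1 down (7 up and 1 down with the region scores). *Hmox1*, which breaks down heme, rose from a median of 5.92 to 19.2 CPM, *Steap3*, a ferric reductase, from 10.6 to 28.4 CPM, and *Cp*, the ferroxidase ceruloplasmin, from 8.61 to 21.4 CPM, all without overlap (adjusted *P* = 9.99e-06, 4.58e-07 and 5.55e-06). *Tfrc*, the receptor for transferrin, was lower (-24.2%) with overlapping groups (adjusted *P* = 0.00781). Of 26 genes of the NADPH oxidase and antioxidant defence tested out of 28, 15 were called up (57.7%) and 0 down (7 up with the region scores). *Cybb*, the catalytic subunit of the phagocyte oxidase, was at 0.322 to 1.37 CPM (median 0.532) against 2.18 to 11.5 CPM (median 9.16), and *Nfe2l2*, the regulator of antioxidant genes, rose 2.03-fold.

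Of 25 TGF-beta genes, 13 were called up and 1 down (median log2 fold change 0.22, 5 up with the region scores). *Tgfb1*, the ligand of scar formation, rose 2.23-fold (9.62 to 14.9 CPM against 17.6 to 33.7 CPM, adjusted *P* = 2.11e-05), *Tgfbr2*, its receptor, 2.09-fold, and *Ltbp2*, a matrix protein of the microfibrils, 6.93-fold, while the intracellular mediators Smad2, Smad3 and Smad4 did not pass the test. Of 31 Wnt genes, 10 were called up and 7 down, and 0 up and 1 down were called with the region scores. *Fzd7*, a Wnt receptor, rose 2.06-fold and *Dkk3*, a neuronal secreted protein of the Dickkopf family, fell from a median of 271 to 178 CPM (-34.1%, adjusted *P* = 2.85e-06). Of 15 tested S100 proteins and annexins, 11 were called up and 1 down, and 11 were called up with the region scores. *Anxa1*, an anti-inflammatory phospholipid-binding protein, rose 7.68-fold, and *Anxa5*, which binds dying cells, rose 69.9%. Of 23 tested cell cycle genes, 3 were called up (13%, against 14.4% of all tested genes) and 1 down, with a median log2 fold change of 0.04 and 0 called with the region scores, and *Mki67*, a marker of cycling cells, was at 0.486 to 1.55 CPM against 1.21 to 3.12 CPM with overlap (adjusted *P* = 0.0116, and a log2 fold change of -0.21 with the region scores). Of 23 genes of apoptosis and pyroptosis tested out of 27, 10 were called up (43.5%) and 0 down (3 up with the region scores).

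**Figure D4:**
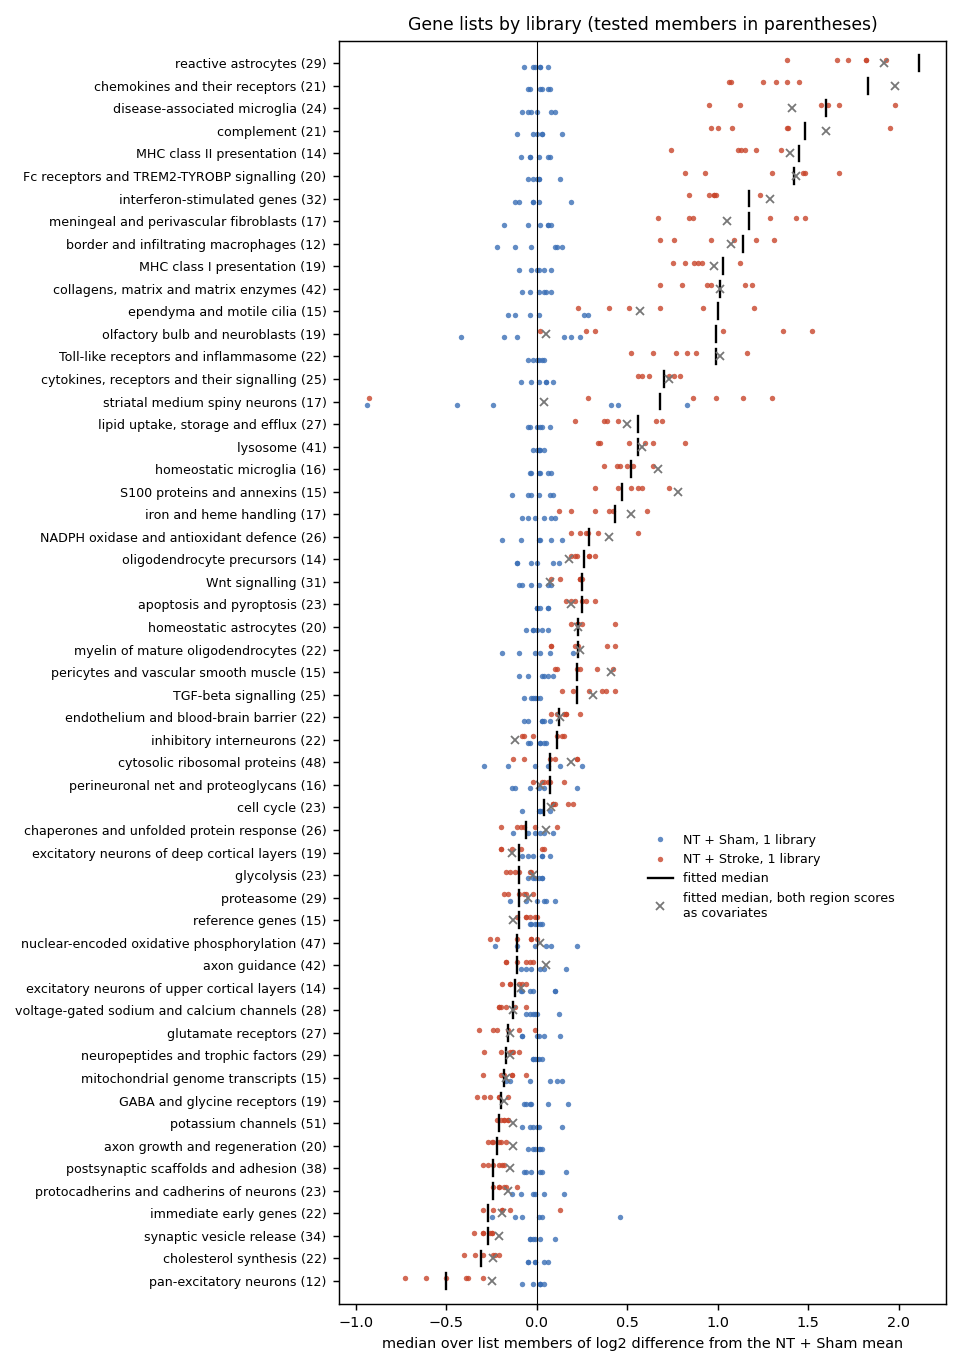
Each row is a gene list with at least 10 tested members (number in parentheses), ordered by its fitted median log2 fold change (black bar), with the fitted median under both region scores as a grey cross. Points are single libraries, NT + Sham in blue and NT + Stroke in red, at the median over members of the log2(CPM + 0.5) difference from the NT + Sham mean, a scale that shrinks low genes, so points can lie left of the bar. Reactive astrocytes stand at the top with 2.11 and pan-excitatory neurons at the bottom with -0.50. Rows of lists with untested members, such as infiltrating macrophages and chemokines, cover tested members only. A low member could pass the count filter through the stroke group alone, so those medians are not read as results.

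Under the same rule on level and overlap, the 10 genes called down with the smallest P values were *Neurod6*, *Fezf2*, *Pde1a*, *Vsnl1*, *Tbr1*, *Dkk3*, *Elavl4*, *Vxn*, *Trbc2* and *Gfra2*. Of 12 genes of excitatory neurons in general, 0 were called up and 10 down, with a median log2 fold change of -0.50 (2 called down with the region scores), and their summed level was 8762 to 9620 CPM in NT + Sham and 5828 to 7503 CPM in NT + Stroke. *Neurod6*, a transcription factor of cortical projection neurons, was at 81.8 to 103 CPM (median 94.7) against 47.7 to 59.7 CPM (median 52.2), or -43.8% (log2 fold change -0.83 with an SE of 0.0707, adjusted *P* = 2.62e-07, and 0.00231 with the region scores). *Slc17a7*, the vesicular glutamate transporter of cortex, was at 2451 to 3080 CPM (median 2743) against 1682 to 2446 CPM (median 1851), or -28.8% (adjusted *P* = 0.000232). Its call did not hold with the region scores (adjusted *P* = 0.267).

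Of 19 deep-layer genes, 4 were called down (21.1%, against 11.5% of all tested genes) and 1 up (5.26%, against 14.4%). The median log2 fold change was -0.10 (3 down and 0 up with the region scores). *Fezf2*, which specifies subcerebral projection neurons of layer 5, fell from 47.0 to 55.6 CPM (median 53.6) to between 26.6 and 35 CPM (median 30.8), or -41.3% (adjusted *P* = 9.67e-07, and 0.00186 with the region scores), and *Tbr1*, of layer 6 neurons, fell by 33% (adjusted *P* = 1.6e-06). Of 14 upper-layer genes, 6 were called down (42.9%) and 2 up (14.3%, near the 14.4% of all tested genes). None was called with the region scores, and 3 were called down without NT + Stroke library 1. *Calb1*, a calcium buffer, fell by 24.2% without overlap (adjusted *P* = 0.000182), and *Cux1*, a homeobox gene of upper layers, rose 18.1% without overlap (adjusted *P* = 0.00268). Of 22 interneuron genes, 4 were called up and 4 down (18.2% each, against 14.4% and 11.5% of all tested genes), and 0 in either direction with the region scores. The median log2 fold change was 0.11, with 13 of 22 above 0, so the list as a whole did not fall. The 4 called up are not named here. *Gad1*, which makes GABA, was at 299 to 400 CPM against 341 to 642 CPM with overlap (adjusted *P* = 0.0688), whereas the peptides *Cck* (-32.1%, adjusted *P* = 7.55e-05) and *Cort* (-45.4%, adjusted *P* = 0.000278) fell without overlap. GABA neurons are also the main neurons of striatum and olfactory bulb, whose scores are given above.

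At the synapse, 24 of 34 vesicle release genes fell and 1 rose (median log2 fold change -0.27, 3 down with the region scores), with 16 of 34 below every sham library. *Snap25*, a core protein of vesicle fusion, was at 2367 to 2727 CPM (median 2497) against 1799 to 2074 CPM (median 1904), or -24.7% (adjusted *P* = 3.34e-05, and 0.0236 with the region scores). *Bsn*, a scaffold of the active zone, fell by 25.4%, and *Sv2b*, a vesicle glycoprotein of excitatory terminals, fell by 33.9%. *Sv2c*, its relative in striatum and other deep nuclei, was 39.3% higher with overlap (adjusted *P* = 0.0481), a call lost without any of 9 libraries. Of 38 postsynaptic genes, 19 fell and 0 rose (median -0.24), and 0 were called with the region scores. *Slitrk1*, a synaptic adhesion protein, fell by 24.6% without overlap, whereas *Dlg4*, the scaffold PSD-95, overlapped (1308 against 1156 CPM as medians, adjusted *P* = 0.0778). Of 23 neuronal protocadherins and cadherins, 11 fell and 0 rose, 6 fell without NT + Sham library 4 and 7 without NT + Stroke library 1, and 0 were called with the region scores.

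Of 27 glutamate receptor genes, 9 were called down and 2 up (5 down without NT + Stroke library 2, and 1 down and 0 up with the region scores). *Gria1*, an AMPA receptor subunit, did not differ beyond its spread (284 to 344 CPM against 262 to 318 CPM, adjusted *P* = 0.474), whereas *Grin2a*, an NMDA receptor subunit of mature synapses, was at 127 to 150 CPM (median 137) against 97.0 to 104 CPM (median 103), or -25.6% (adjusted *P* = 9.66e-06, and 0.0577 with the region scores). *Grm4*, a presynaptic metabotropic receptor, rose 46.6% without overlap. Of 19 genes of GABA and glycine receptors and their chloride transporters, 11 fell and 0 rose, and 1 was called down with the region scores. *Gabbr2*, a subunit of the GABA-B receptor, fell from 177 to 260 CPM (median 196) to between 118 and 152 CPM (median 139), or -32.2% (adjusted *P* = 0.000131).

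Of 51 potassium channel genes, 25 fell and 4 rose (median log2 fold change -0.21, 4 down with the region scores). *Kcnt2*, a sodium-activated channel, was at 15.6 to 23 CPM against 9.38 to 11.4 CPM (-41.5%, adjusted *P* = 1.56e-05), and *Kcnmb4*, the neuronal beta subunit of the BK channel, fell by 34.2%. *Kcnn4*, a calcium-activated channel of microglia and leukocytes, rose 3.59-fold, from a median of 0.757 to 2.3 CPM (adjusted *P* = 0.000502). Of 28 sodium, calcium and HCN channel genes, 12 fell and 0 rose, with 7 down without NT + Sham library 2, 6 without NT + Stroke library 1 and 0 with the region scores. *Scn8a*, the sodium channel of the axon initial segment, was at 235 to 263 CPM against 166 to 200 CPM (-22.8%, adjusted *P* = 8.72e-05).

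Of 29 tested neuropeptides and trophic factors, 11 were called down and 2 up (0 down and 1 up with the region scores). *Bdnf*, the activity-dependent neurotrophin, was at 17.1 to 26.7 CPM (median 20.6) against 10.7 to 15.1 CPM (median 13.1), or -37.1% (adjusted *P* = 0.000149, and 0.389 with the region scores). *Grp*, gastrin-releasing peptide, was at 6.84 to 11.3 CPM against 1.95 to 4.57 CPM, or -58.1%. Of 22 immediate early genes, 4 were called down (18.2%, against 11.5% of all tested genes) and 1 up (4.55%, against 14.4%). With the region scores, 0 were called in either direction. *Fos*, the standard marker of recent activity, overlapped (12 against 11.6 CPM as medians). The list of axon growth and regeneration gave 10 of 20 tested genes called down and 5 up, where 11.5% and 14.4% of all tested genes were. It gave 3 up without NT + Stroke library 5, and 0 down and 1 up with the region scores. The list was not divided by the role of its genes, so these counts do not measure a change in growth itself. *Gap43*, a growth cone protein, fell by 18.2% and *Stmn2*, a microtubule regulator of axons, fell by 29.6%, both without overlap, whereas *Atf3*, an injury-induced transcription factor that phagocytes also express, rose 6.62-fold. Guidance genes gave 8 called up (5 without NT + Sham library 1) and 10 down of 42 tested, and 1 in each direction with the region scores. These shares were 19.0% and 23.8%, against 14.4% and 11.5% of all tested genes. The median was -0.11, and 0.05 with the region scores. *Plxnb2*, a semaphorin receptor of glia and phagocytes, rose 60.8% and *Ephb6*, an ephrin receptor, fell by 29.8%.

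Lists of general cell functions are read here against the 14.4% of all tested genes called up and the 11.5% called down. Oxidative phosphorylation gave 0 calls among 47 nuclear genes (median log2 fold change -0.11, 0.02 with the region scores), 2 with DESeq2 and 5 without NT + Sham library 4. Of 15 transcripts of the mitochondrial genome, 2 (13.3%) were called down and 0 up (median -0.18, 0 calls with the region scores). Ribosomal proteins gave 1 called up of 48 (5 without NT + Sham library 3, 0 with the region scores), with a median of 0.07 against -0.01 for all genes. This count was not stable: 27 of the 48 were called up with the olfactory bulb score alone (median 0.28). Without scaling beyond library size, 8 were called up. Proteasome genes gave 5 called down of 29 (17.2%, and 0 with the region scores), each by small amounts (*Psmd12*, a regulatory subunit, -11.5%), and from 1 (without NT + Sham library 3 or NT + Stroke library 1 or 4) to 8 (without NT + Sham library 4) when single libraries were left out. Glycolysis gave 4 called up (17.4%) and 8 down (34.8%) of 23, 1 up and 0 down with the region scores, with 4 down without NT + Sham library 1 or 2 or NT + Stroke library 1 and 5 without NT + Stroke library 5. *Hk3*, the hexokinase of myeloid cells, rose 4.54-fold while *Hk1*, that of neurons, was lower (-15.5%) with overlapping groups. Chaperones gave 3 called up (11.5%) and 6 down (23.1%) of 26, 2 up and 0 down with the region scores, with a median of -0.06 that became 0.01 without scaling beyond library size. *Hspa5*, the sensor chaperone of the endoplasmic reticulum, was at 189 against 193 CPM as medians. Among 15 common reference genes, 3 (20%) were called up and 4 (26.7%) down, and 2 up and 1 down with the region scores. *B2m* rose 2.09-fold and *Gusb*, a lysosomal enzyme, 80.5%, while *Actb* overlapped (1049 against 1126 CPM as medians, adjusted *P* = 0.315).

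Photothrombosis was also done in hypertensive mice, and no library is shared between the HT and NT comparisons. In HT + Stroke against HT + Sham, 91 of 16741 tested genes (0.544%) were called up and 17 (0.102%) down. These counts moved with single libraries. They were 451 and 82 without HT + Stroke library 1, 266 and 29 without library 6, 160 and 47 without library 5, 22 and 3 without library 4 and 6 and 3 without library 2 of that group, while 9 were called down without library 3. Of the HT + Sham libraries, leaving out library 1 gave 10 and 4, library 2 43 and 7, library 3 7 and 2 and library 4 15 and 3, and 27 were called down without library 6. Of the NT genes called up, 2062 of 2369 tested in both (87.0%) had a fold change above 0 in the HT mice, where 50.1% of all tested genes did, and of the NT genes called down 1662 of 1939 (85.7%) were below 0, where 49.9% of all did. Their median log2 fold changes in the HT mice were 0.32 and -0.11. The overlap of calls was 55 genes up (2.27% of the NT calls and 60.4% of the HT calls) and 12 down (0.619% and 70.6%), with 0 called in opposite directions. The test of the difference between the 2 stroke effects gave 0 calls among 17608 genes (0.0%) with edgeR, 22 with DESeq2 and 1836 at an unadjusted P under 0.05. The list medians in the HT mice were 1.38 for disease-associated microglia, 1.29 for striatal markers, 1.22 for reactive astrocytes, 0.32 for fibroblasts and -0.50 for olfactory bulb markers. Few members of these lists were called in the HT mice. Called up were 0 of 24 microglial, 2 of 17 striatal, 2 of 29 astrocyte, 0 of 17 fibroblast and 0 of 19 olfactory bulb genes, and 0 were called down in each. All 17 striatal markers were above 0, and 11 of 22 myelin genes were called up in the HT mice, with a median of 0.47. The differences from the NT medians were not tested by list.

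**Figure D5:**
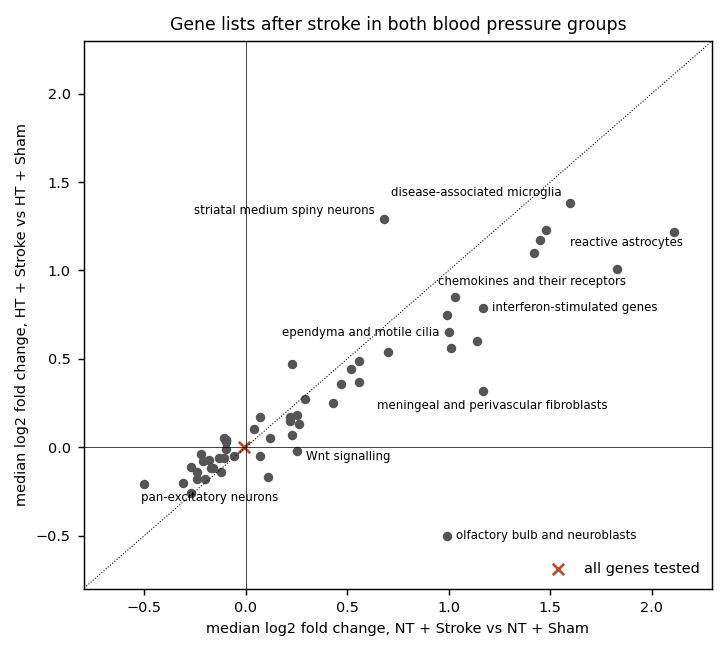
Each point is a gene list with at least 10 tested members, at its median log2 fold change in NT + Stroke vs NT + Sham (x axis) and in HT + Stroke vs HT + Sham (y axis), with the dotted line at equality and the median of all tested genes as a cross. Disease-associated microglia lie at 1.6 and 1.38, and olfactory bulb markers at 0.99 and -0.50. Points of lists with untested members, such as infiltrating macrophages and chemokines, cover tested members only. A low member could pass the count filter through the stroke group alone, so those medians are not read as results.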

How the data were processed

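Per the labels and the methods, poly(A) RNA from brain was sequenced and the authors deposited tables of counts per gene (featureCounts 1.5.0-p3 in the submitters' notes, which also name DESeq2 1.20.0), with FPKM values beside them. Genes carry Ensembl identifiers at GRCm38 positions. Whether strand was used in counting is not given in the sources used here, so genes that overlap on opposite strands are uncertain. Another 56 columns of normalized counts and means, and the columns of fold changes and P values from the authors' own comparisons, were not used.

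The counts as deposited were tested with edgeR 4.0.16 in R 4.3.3 (filterByExpr with a minimum count of 10, TMM scaling, quasi-likelihood test, Benjamini-Hochberg adjusted P under 0.05, two-sided) on the 12 NT libraries, after a test on simulated data. CPM values are TMM-scaled, and SE values come from the same fit. Deposited FPKM values entered only limma 3.58.1 fits on log2(FPKM + 1) and log2(FPKM + 0.1), as alternatives beside DESeq2 1.42.0, other scalings and filters, all 24 libraries in one fit, the library number as a block, the region scores and leaving out single libraries. Counts limit the precision of low genes, and P values and ranges cover these libraries only.

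The 60 gene lists were chosen with earlier results of these data known, and so was the comparison itself. Named genes are the 10 called up and 10 called down with the smallest P (mean log2 CPM above 1, no overlap) and, per list, its first member, its 2 called members with the smallest P and the one called against most of the list. Further names were chosen after their values were seen. Some named genes are not reported here.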

Additional observations from a re-analysis of the deposited data

Results flagged for a closer look

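In each group of 6 libraries, the highest and the lowest CPM of each named gene was compared with its nearest neighbour by Dixon's test. Of 352 such groups, 20 held a library that stood apart, where chance gives about 1 in 20. NT + Sham library 4 accounted for 8 of them. It was highest for *Gfra2* (99.0 CPM, next 89.9), *Igkc* (2.86, next 0.799), *Rasgrf2* (104, next 87.6), *Gria1* (344, next 306), *Scn1a* (91.2, next 77.0), *Sv2b* (454, next 381) and *Hsp90aa1* (918, next 773), and lowest for *Actb* (943, next 1027).

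NT + Stroke library 1 was highest for *Jchain*, the joining chain of secreted antibodies (9.31 CPM, next 3.76), and for *Igkc* (46.9, next 12.4), and lowest for *Atp6v1b2* (461, next 504) and *Gap43* (247, next 303). NT + Stroke library 4 was lowest for *Pdgfra* (22.2, next 24.6).

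Among the other NT + Sham libraries, library 1 was lowest for *Abca1* (14.3 CPM, next 17.3), library 2 highest for *Ndrg1* (74.3, next 63.4) and *Cybb* (1.37, next 0.697), and library 3 highest for *Fos* (29.4, next 14.6). Library 5 was highest for *Ttr* (8.83, next 1.29). Library 6 was highest for *Col18a1* (9.24, next 7.79) and lowest for *Bcl2a1b* (0.107, next 0.29).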

How the results depend on the processing

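The NT counts of 2426 genes up and 1939 down were most changed by the region scores, with 699 up and 74 down when both were covariates. The count of genes down was 1021 without scaling beyond library size, 1216 and 1206 with limma on log2(FPKM + 1) and log2(FPKM + 0.1), and 1110 without NT + Stroke libraries 1, 4 and 5, an alternative chosen after seeing the data. Other filters, RLE scaling, DESeq2, all 4 groups in one fit and either score alone stayed within 1.5 times of both counts, as did leaving out single libraries (2127 to 2492 up, 1348 to 1811 down). These are counts over all tested genes, and single lists could move more. With the olfactory bulb score alone, 27 of 48 ribosomal protein genes were called up, against 1 without it. Same-numbered NT libraries were not paired, since the correlations of their deviations ran from -0.11 to 0.294, and the replicate block gave 2598 up and 2038 down and called 12 of 17 striatal markers up, against 1 without it. With both scores, the log2 fold change was -0.66 for *S100a8*, 0.01 for *Hapln4* and -0.21 for *Mki67*. With the olfactory bulb score alone, the log2 fold change was -0.32 for *Dcx*, itself a member of that score. In the HT mice DESeq2 called 689 up and 218 down, and leaving out single libraries gave 6 to 451 up and 2 to 82 down. The interaction had 22 calls with DESeq2. The causes were not tested. Depth limits the lymphocyte and granulocyte genes, most of which were too low to test.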
